A study of Mus musculus with 2 samples.

Results

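Forkhead genes were examined in a Ring1b ChIP-seq data set from the mouse incisor, a tooth that grows throughout life. Members were 43 forkhead (Fox) genes taken by symbol, of 21887 protein-coding genes in all, and a member counted as having Ring1b where the authors' table assigned it an interval, that is, an enriched stretch within 10 kb of the gene. Of the 43 genes, 25 had an interval and 18 had none. Pulp was dissected from incisors of CD1 mice aged 5 postnatal days. Mice had received 1 intraperitoneal dose of 3.3 µg per g of EdU (5-ethynyl-2'-deoxyuridine, a thymidine analogue built into DNA during replication), and 24 h later EdU-positive cells were sorted for chromatin immunoprecipitation. No genetic change is named in the labels, and all mice were of 1 strain and age and received EdU. GEO's labels list 1 sample of Ring1b ChIP and 1 of input DNA, and no input values were used here.

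The deposited headers name 2 sets of ChIP intervals as replicates 1 and 2. Because the labels list 1 ChIP sample, these are called run 1 and run 2 here and counted as 1 sample, so no SD and no p-value is given. If they are separate biological replicates, the differences between them are the spread between replicates. Run 1 held 465 intervals with heights up to 9 and run 2 held 3938 with heights up to 66, so run 1 stood apart in yield, and run 2 supplied 69 of the 71 distinct intervals at forkhead genes. The height is the authors' own value at the summit of an interval, a whole number whose scale is not stated, and the depth of sequencing is unknown. The sorted cells were a bulk population, in which fewer cells with Ring1b at a gene and less Ring1b per cell cannot be told apart. An interval list does not give expression, so the labelled pulp was not checked against its marker genes. Coordinates are in mm10, the build also called GRCm38.

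Forkhead proteins bind DNA through a shared winged-helix domain and are grouped by letter into classes. Classes A to F, I, L and Q hold many factors of embryonic patterning, such as the FoxA factors of endoderm and the FoxC and FoxF factors of mesenchyme, whereas classes K, M, N, O and P hold many widely expressed regulators of growth, division and metabolism. Ring1b is the E3 ligase at the core of Polycomb repressive complex 1, which ubiquitinates histone H2A and is known for occupying silent developmental genes, often at CpG-rich promoters.

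Promoter sequence is shown first for the 4 highest members that had an interval over the start and an entry in the RefSeq promoter table, and for Foxa3, which had no interval although Foxa1 and Foxa2 of its class did. Each window runs from 250 bases before to 50 after the RefSeq start of GRCm38.p6, 300 bases, 5′ to 3′ on the gene's strand, with CpG dinucleotides in capitals. The window of Foxa1 is chr12:57546062-57546361 on the minus strand, that of Foxd3 chr4:99656049-99656348 on the plus strand, that of Foxl2 chr9:98955357-98955656 on the plus strand, that of Foxc1 chr13:31806396-31806695 on the plus strand and that of Foxa3 chr7:19023490-19023789 on the minus strand. All 300 bases of the first 4 windows lay under a Ring1b region, and 0 bases of the Foxa3 window did.
Foxa1: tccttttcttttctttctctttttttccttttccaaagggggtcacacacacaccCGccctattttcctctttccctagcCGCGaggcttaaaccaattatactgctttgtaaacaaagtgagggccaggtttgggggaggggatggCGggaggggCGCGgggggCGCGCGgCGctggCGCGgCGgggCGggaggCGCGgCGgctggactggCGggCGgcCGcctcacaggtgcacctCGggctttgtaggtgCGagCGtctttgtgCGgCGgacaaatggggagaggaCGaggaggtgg
Foxd3: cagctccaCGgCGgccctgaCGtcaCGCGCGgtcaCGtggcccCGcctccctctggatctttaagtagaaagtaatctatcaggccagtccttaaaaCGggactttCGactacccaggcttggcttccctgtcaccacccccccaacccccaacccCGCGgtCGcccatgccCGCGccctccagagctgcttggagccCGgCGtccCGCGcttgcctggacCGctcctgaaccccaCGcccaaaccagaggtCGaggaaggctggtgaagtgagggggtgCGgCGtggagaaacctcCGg
Foxl2: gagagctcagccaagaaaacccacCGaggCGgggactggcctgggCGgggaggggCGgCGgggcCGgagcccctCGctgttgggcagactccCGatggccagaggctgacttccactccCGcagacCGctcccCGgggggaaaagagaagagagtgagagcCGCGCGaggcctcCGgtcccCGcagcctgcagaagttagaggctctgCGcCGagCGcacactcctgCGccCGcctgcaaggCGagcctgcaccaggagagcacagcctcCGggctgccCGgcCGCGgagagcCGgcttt
Foxc1: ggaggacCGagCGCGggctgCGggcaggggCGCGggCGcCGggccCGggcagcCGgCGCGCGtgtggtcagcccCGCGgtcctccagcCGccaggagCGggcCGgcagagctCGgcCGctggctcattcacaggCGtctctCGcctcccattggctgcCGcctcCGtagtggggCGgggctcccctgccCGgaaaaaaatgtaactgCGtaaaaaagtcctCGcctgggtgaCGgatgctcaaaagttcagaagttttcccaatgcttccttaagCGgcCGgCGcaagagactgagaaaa
Foxa3: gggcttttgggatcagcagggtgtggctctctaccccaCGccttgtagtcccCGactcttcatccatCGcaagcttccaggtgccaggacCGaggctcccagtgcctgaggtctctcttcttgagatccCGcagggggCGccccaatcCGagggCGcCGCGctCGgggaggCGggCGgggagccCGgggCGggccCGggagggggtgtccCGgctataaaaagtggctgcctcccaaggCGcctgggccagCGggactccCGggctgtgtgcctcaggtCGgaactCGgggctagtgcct
These windows held 26 CpG in Foxa1, 25 in Foxd3, 27 in Foxl2, 32 in Foxc1 and 22 in Foxa3. The sequence of Foxa3 was thus also GC-rich, at 69%, against 62.3% in Foxa1. Relative to the number that base composition predicts, its CpG were fewer, with an observed over expected ratio of 0.619, against 0.929 in Foxa1, 0.793 in Foxd3, 0.708 in Foxl2 and 0.943 in Foxc1. Members with intervals also lay lower than Foxa3. Foxa2, with 5 intervals, had 12 CpG, 54.3% GC and a ratio of 0.548, and Foxb2, with 3, had a ratio of 0.502.

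Ring1b intervals lay at a larger share of forkhead genes than of all genes. An interval was assigned to 25 of 43 members, 58.1%, with an exact Clopper-Pearson 95% interval of 42.1 to 73.0% that covers counting error over genes only. The same share over all protein-coding genes was 15.8%. Counted with neighbours within 100 kb as 1 locus, 22 of 39 loci had one, 56.4%. Within 2.5 kb of the start, intervals lay at 21 members, against 10.4% of all protein-coding genes. All 25 members had intervals in run 2. In run 1, Foxa1 and Foxd3 also had 1 each, 2 of the 43 members (4.65%), against 1.73% of all protein-coding genes. Among genes with an interval, those with one in run 1 were 2 of the 25 members and 378 of 3461 protein-coding genes. On that count the members did not exceed the general share.

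The share with an interval varied by letter, over classes of 1 to 4 genes. Every member of classes B, C, D, F, K, L and Q had an interval, 7 of the 18 classes, and no member of classes H, J, M, R and S did. Classes H, M, Q and S hold 1 gene each, so they could only be all or none. The other classes hold 2 to 4 genes, too few to set classes apart. The other 6 classes were split, with 2 of 3 in class A, 1 of 2 in E, 1 of 3 in I, and 2 of 4 in each of N, O and P. Grouped by letter, the patterning classes (A to F, H, I, L, Q and S) had an interval at 17 of 23 genes (73.9%, exact 95% interval 51.6 to 89.8%) and the remaining classes (J, K, M, N, O, P and R) at 8 of 20 (40%, exact 95% interval 19.1 to 63.9%). Within 2.5 kb of the start the shares were 69.6% (16 of 23) and 25% (5 of 20). The 95% intervals of the first pair of shares overlap, but they treat genes as independent, although Foxc2 and Foxl1 share intervals. Overlap is no test, and the difference was not tested. The patterning classes hold 21 of the 22 members shorter than 6 kb, and the remaining classes hold all 3 X-linked members. Class therefore cannot be told apart from gene length here.

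**Figure D1:**
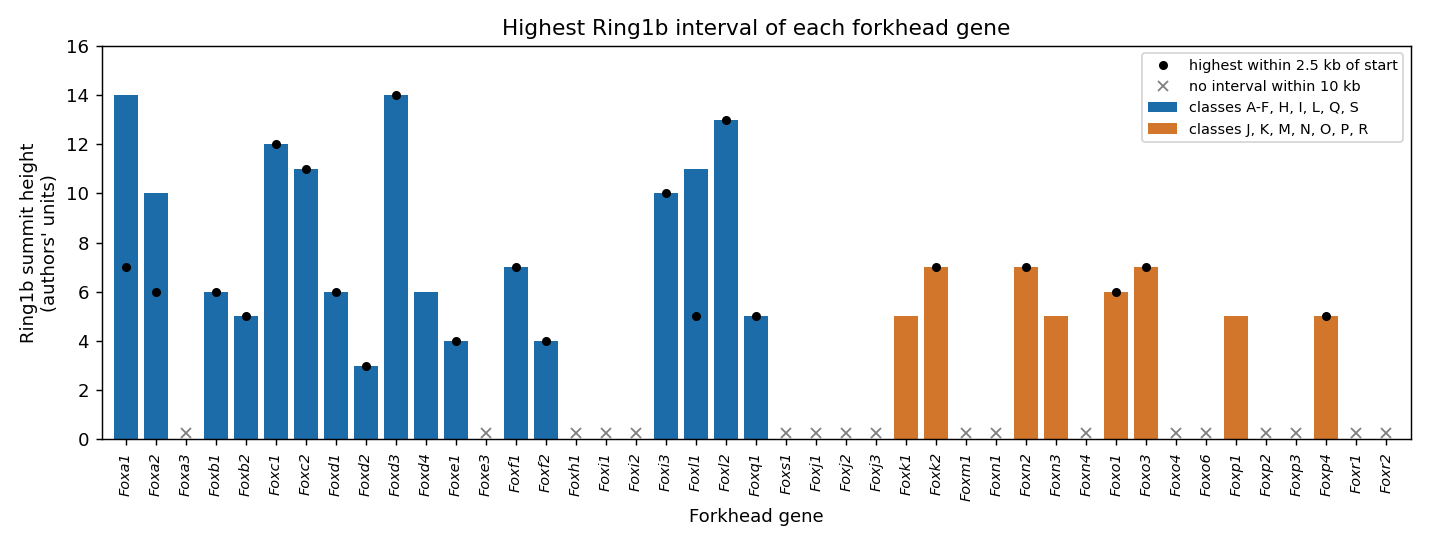
Height of the highest Ring1b interval of each of the 43 forkhead genes, in the authors' units. Bars are genes with an interval, black points give the highest interval within 2.5 kb of the start, and crosses mark the 18 genes with no interval within 10 kb; the 8 genes of 10 or more are all in classes A, C, D, I and L.

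The highest forkhead intervals all lay at patterning genes. The top interval reached 10 or more at 8 of the 17 patterning members with an interval and at 0 of the 8 others, whose heights were 5 to 7. Over all protein-coding genes with an interval, 4.57% reached 10, and over all protein-coding genes 0.722% did. The median was 7 in the patterning members and 5.5 in the others, against 4 over all protein-coding genes with an interval. That order held for the highest interval of each gene only. Over all intervals of the members, the median height was 5 in both groups, and for the highest interval within 2.5 kb of the start it was 6 in the 16 patterning members with one and 7 in the 5 others. A height of 5 or more was reached by 22 of the 43 members, against 7.9% of all protein-coding genes. Of the 25 members with an interval, 16 reached 6 or more, against 26.9% of the protein-coding genes with one and 4.25% of all protein-coding genes. Low heights occurred in both groups, and the patterning members included the lowest of all, Foxd2 at 3.

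**Figure D2:**
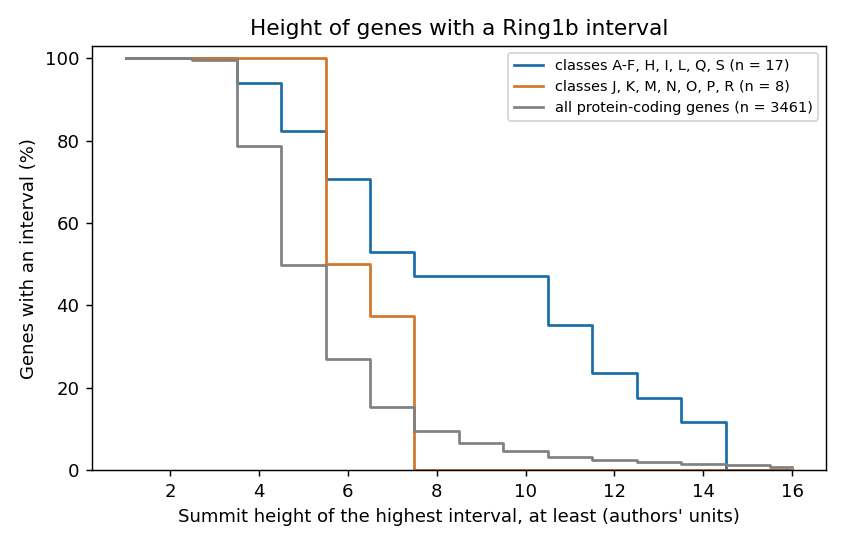
Share of genes with an interval (vertical axis, percent) whose highest Ring1b interval reached at least the height on the horizontal axis, in the authors' units. The 8 genes of classes J, K, M, N, O, P and R end at 7, and the 17 genes of the other classes run on to 14.

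The FoxA genes, which encode pioneer factors that open chromatin in endoderm, carried their highest Ring1b beyond the gene. Foxa1 held 8 intervals over 15.7 kb, 7 of them from run 2. From 3.97 kb upstream to 10.9 kb downstream of the start, the run 2 heights were 3, 7, 5, 3, 12, 14 and 9. The interval of 14, on chromosome 12 at 57537819 to 57541421, was 3603 bp wide and had its summit 7337 bp from the start, downstream of the gene. The interval over the start reached 7, so the summit downstream was higher than that at the promoter. The run 1 interval of Foxa1 lay inside this widest run 2 interval, at 57538031 to 57538690, with a height of 3. Foxa2 had 5 intervals on chromosome 2, of heights 6 and 4 near the start and 4, 10 and 3 between 6249 and 7614 bp from it. The interval of 10 lay at 148039790 to 148040372, again downstream of the gene. Foxa3, which acts with the other FoxA factors in liver, had no interval, and the nearest region lay 71.0 kb away.

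Class D held a gene at the top height of 14 and the lowest gene of all members. Foxd3, a factor of neural crest and pluripotent cells, was almost covered: regions filled 10738 bp, 96.5% of a span of 11.1 kb. Its run 2 heights were 11, 4, 9, 14 and 9 from upstream to downstream. The interval of 14, on chromosome 4 at 99655520 to 99659413, ran over the start and the whole gene and was, at 3894 bp, the widest at any member. A run 1 interval of height 4 at 99652010 to 99652530, upstream of the start, joined the ends of a pair of run 2 intervals into 1 region. Foxd1, a factor of kidney stroma, had 6 intervals on chromosome 13 in 2 groups, 3 around the start from 98352589 to 98356790 with heights of 4, 6 and 5, and 3 more than 10 kb downstream, from 98365026 to 98367211, with heights of 4, 3 and 3. Foxd2 had 1 interval of height 3, also assigned to 9130206I24Rik. Foxd4 had 1 of height 6 whose summit lay 3741 bp from the start, past the end of the gene. Class D thus ran from 1 narrow interval to a domain.

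FoxC genes, which act in mesenchyme of the head, skeleton and vessels, had their highest interval over the start. At Foxc1 the heights were 6, 12, 6 and 4 in 4 intervals, and that of 12, on chromosome 13 at 31806296 to 31809278, covered the start and 2983 bp in all. All 4 were also assigned to 4930548F15Rik, and the last 2 also to the long gene Gmds. At Foxc2 the heights were 11, 11, 6 and 5, and the intervals of 11 lay on chromosome 8 at 121114413 to 121115969 and at 121116058 to 121118605. The second of these ran over the start, and both were also assigned to Mthfsd. Foxc1 and Foxc2 were thus alike in height, at 12 and 11, and in covered length, at 6372 and 5524 bp. The Foxc2 length includes the interval of 5, which is 1029 bp wide. Its summit lay 12325 bp from the Foxc2 start and 811 bp from that of Foxl1.

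Foxf1, Foxc2 and Foxl1 are neighbours within 46.3 kb on chromosome 8, and Foxc2 and Foxl1 shared 3 intervals. Foxl1, a factor of gut mesenchyme, was listed at 11, but the interval of 11 was that over Foxc2, 9989 bp from the Foxl1 start. Its own interval near the start, at 121127972 to 121129000, reached 5. Without Foxl1, 7 of 16 patterning members with an interval reached 10 or more. Foxf1, a Hedgehog-responsive factor of lateral plate and lung mesenchyme, had 2 intervals, of 7 upstream and 4 over the start, both also assigned to Fendrr, a noncoding RNA gene that begins next to it. The summit of the higher interval lay 40 bp from the start of Fendrr and 1314 bp from that of Foxf1, so this signal cannot be given to 1 of the 2 genes. The 3 forkhead genes together had 6 regions, which covered 6964 bp.

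Foxl2, a factor of ovary and eyelid, had 4 intervals on chromosome 9 with heights of 4, 3, 9 and 13. That of 9, at 98954610 to 98956405, lay over the start, and that of 13, at 98956505 to 98959476, lay over the second part of the gene and beyond it. All 4 were also assigned to Foxl2os, a transcript from the opposite strand. Foxi3, a factor of hair and tooth development, reached 10 in an interval 1486 bp upstream of its start, on chromosome 6 at 70954509 to 70955624, and 5 in a second over the start. Its relatives Foxi1, a factor of the inner ear and kidney, and Foxi2 had none, with the nearest regions 690 and 105 kb away.

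Among the FoxB genes, number and height parted. Foxb1, a factor of the hypothalamus and spinal cord, had 9 intervals, the most of any member, on chromosome 9 from 69755539 to 69771231. Heights in that order were 3, 3, 6, 4, 3, 4, 5, 6 and 5, so none stood out. Every one of the 9 was also assigned to B230323A14Rik, which begins close to Foxb1. Foxb2 on chromosome 19 had 3, from 16871080 to 16874500, of heights 4, 5 and 2. The other patterning members were also low: Foxf2, a factor of palate and gut mesenchyme, reached 4, Foxq1, a factor of hair structure, reached 5, and Foxe1, a factor of thyroid and palate, reached 4. Foxf2 and Foxq1 lie 64.8 kb apart on chromosome 13 and shared no interval, but the Foxq1 interval was also assigned to 1700018A04Rik. Foxe3, a lens factor 15.5 kb from Foxd2, had none, and its nearest region was the one at Foxd2.

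**Figure D3:**
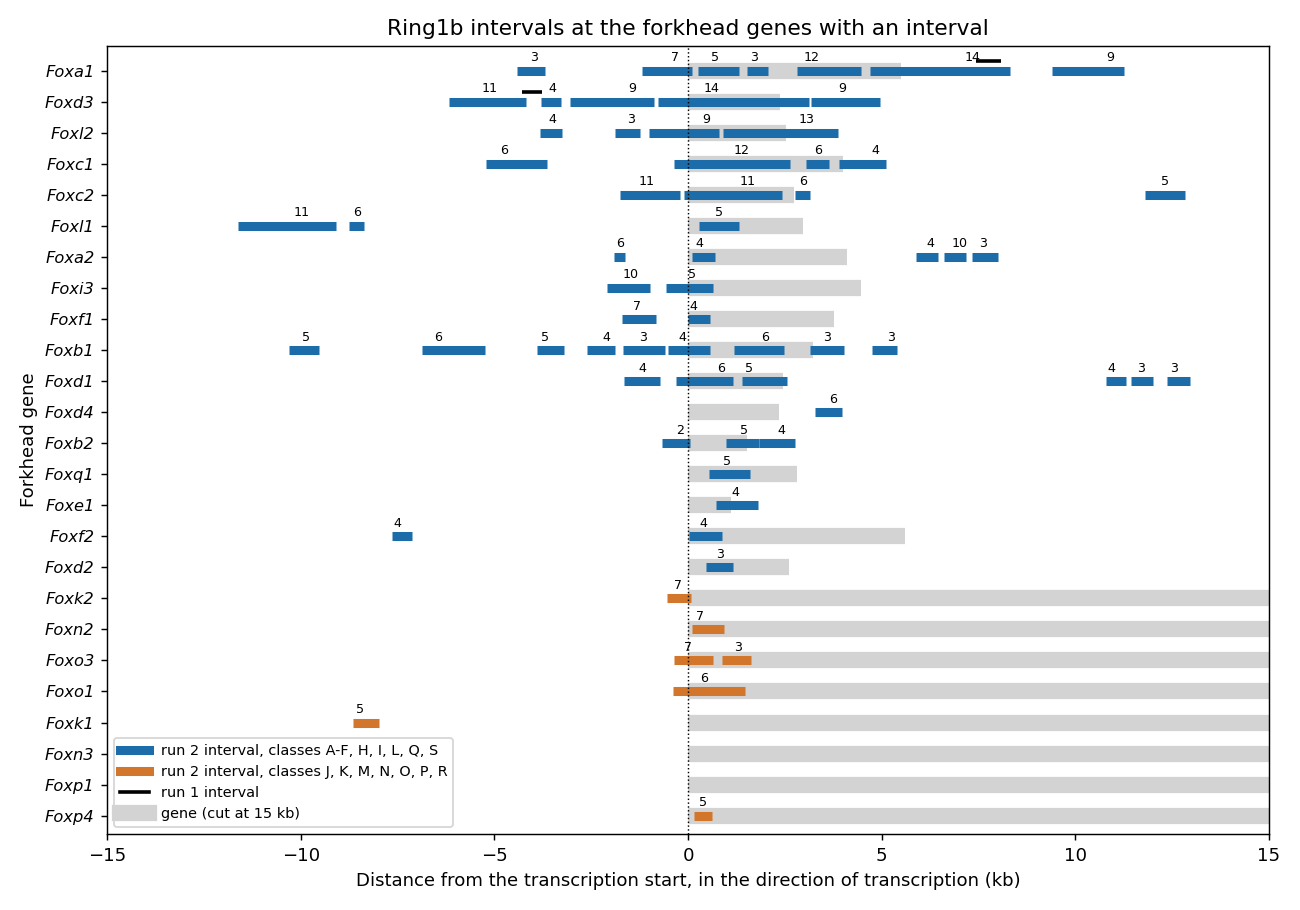
Ring1b intervals at the 25 forkhead genes with an interval, by distance from the start in kb along the direction of transcription. Coloured bars are run 2 intervals with their heights printed above, black bars are run 1 intervals and grey bars are genes, cut at 15 kb; intervals farther than 15 kb, at Foxn3, Foxp1 and Foxo3, are not drawn. Foxa1, Foxd3, Foxc1 and Foxb1 carry intervals on both sides of a short gene, and Foxk2, Foxn2, Foxo1 and Foxp4 carry 1 near the start of a long gene.

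The remaining classes had few intervals. Of their 8 members with an interval, 6 had 1 and 2 had 3, and the summed width of regions per gene was 466 to 2370 bp, against 680 to 10738 bp in the patterning members. Foxo3, an effector of insulin and stress signalling, had 3 intervals on chromosome 10, with a height of 7 at the start (42276089 to 42277111), 3 just inside the gene and 3 at 27190 bp from the start. Its paralogue Foxo1 had 1 interval of height 6 over the start, 1865 bp wide. Foxk2, a repressor linked to autophagy genes, and Foxn2 each reached 7 in 1 interval at the start, and Foxp4 reached 5 there. The Foxk2 interval was also assigned to Narf.

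The other 3 lay away from the deposited start. Foxk1 had 1 interval of height 5, 8473 bp upstream. Foxn3 had 1 of height 5, 57959 bp inside the gene. Foxp1, which encodes a repressor of the FoxP subfamily, had 3 intervals on chromosome 6 of heights 5, 3 and 3, all far inside a deposited model of 510 kb. One of these, at 99028465 to 99029348 with a height of 3, lay 167 bp from an internal start of Foxp1 in the RefSeq table, which is 407047 bp from the deposited start. Counting RefSeq starts too, members with an interval at a start were 22 in place of 21.

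No interval was assigned to 18 members, for which the gap to the nearest region was measured. It was not measured for other genes without an interval, so these gaps cannot be called wide or narrow. The gap ranged from 12.7 kb at Foxj1, a factor of motile cilia, to 4400 kb at Foxp3, the factor of regulatory T cells, with a median of 105 kb. It was over 100 kb at 11 of the 18 genes. Besides Foxj1, gaps under 30 kb were those of Foxo4 (13.1 kb) and Foxe3. Foxm1, which drives mitotic genes, was 509 kb from a region. Foxh1, the Nodal pathway factor, was at 38.7 kb, Foxs1 at 100 kb, Foxn1 of the thymus at 95.4 kb and Foxn4 of the retina at 123 kb. Foxj2, Foxj3, Foxo6, Foxp2, Foxr1 and Foxr2 complete the list, from 53.6 kb at Foxr1 to 2190 kb at Foxp2. The 3 X-linked members, Foxo4, Foxp3 and Foxr2, were all among the 18, and over all X-linked protein-coding genes 3.52% had an interval, against 16.6% of autosomal ones.

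Forkhead genes with Ring1b often carried several intervals. Of the 25 members, 12 had 3 or more, against 7.69% of the protein-coding genes with an interval and 1.22% of all protein-coding genes. These were 10 of the 17 patterning members and 2 of the 8 others. Patterning genes are short, with a median RefSeq length of 2.96 kb, against 39.5 kb in the remaining classes. Among the latter, the 2 genes with 3 intervals, Foxp1 and Foxo3, were long, at deposited lengths of 510 and 91.0 kb. Among all members shorter than 6 kb, 16 of 22 had an interval, against 9.46% of all protein-coding genes of that length. In the patterning members 30.6% of assignments lay in the gene, 38.7% upstream and 30.6% downstream, whereas in the others 10 of 12 lay in the gene and 0 downstream. Over all protein-coding genes these shares were 48.1% in the gene, 33.4% upstream and 18.5% downstream. Because intervals up to 10 kb outside a gene are assigned to it, a short gene has more flank than body. In these positions class therefore cannot be told apart from gene length. An interval shared by Foxc2 and Foxl1 was counted for each gene.

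**Figure D4:**
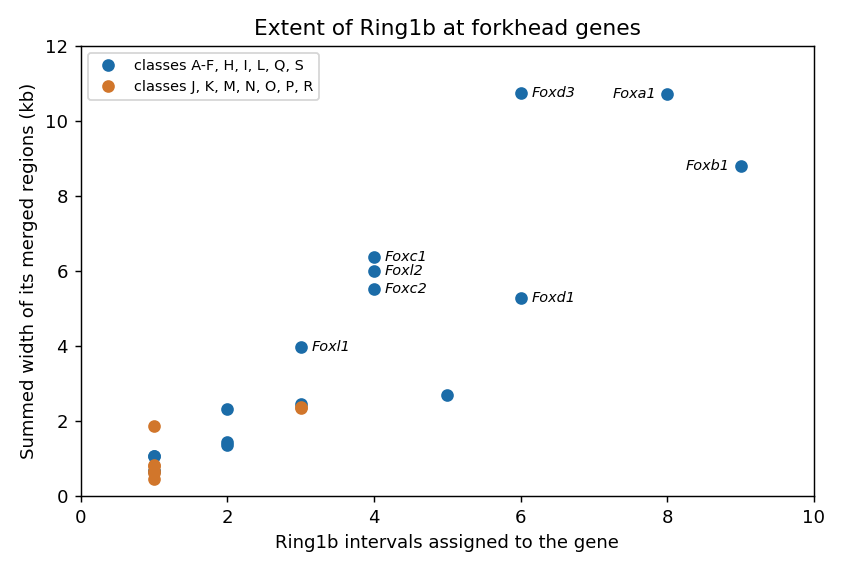
Number of Ring1b intervals assigned to each of the 25 forkhead genes with an interval (horizontal axis) and the summed width of its merged regions in kb (vertical axis). Foxd3, Foxa1 and Foxb1 lie at 10.7, 10.7 and 8.81 kb, and the genes of classes J, K, M, N, O, P and R lie below 2.5 kb.

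The merged regions at forkhead genes numbered 68 and covered 77.2 kb. Their median width was 858.5 bp, against 671 bp over all 4316 regions. Of the 68, 7 were 2 kb or wider (10.3%), against 3.61% of all regions. The highest interval lay within 2.5 kb of the start at 18 of the 25 members, against 61.9% of all protein-coding genes with an interval. The exceptions were Foxa1, Foxa2, Foxd4, Foxl1, Foxk1, Foxn3 and Foxp1.

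Run 1 added little but was not blank. At 15 of the 23 members with no run 1 interval, the authors' table gives a run 1 mean height above 0 over the same regions, against 47.3% of protein-coding genes of that kind. These were 12 of 15 patterning members and 3 of 8 others. A gene with more regions has more places where a run 1 height can occur. Members with an interval had a median of 3 intervals in the patterning classes and 1 in the others, against 1 over all protein-coding genes with an interval. Class and family therefore cannot be told apart from the number of intervals in these counts. Among them the run 1 mean height was 4 at Foxn3, against a run 2 mean of 5, and 3 at Foxl2, against 7.25. At Foxd1 it was 2.67, against 4.17, at Foxc1 2, against 7, and at Foxq1 2, against 5. The other 10 had run 1 means of 1 to 1.5, such as Foxc2 at 1.33, against 8.25, and Foxl1 at 1, against 7.33. The deposited run 1 means are never between 0 and 1, so regions with no run 1 height appear to be left out of them, and they are not on the same footing as the run 2 means.

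CpG content was higher, on the median, in promoters of members with Ring1b at the start. A promoter window at the start was available for 27 members. In the 14 with an interval at the start the median observed over expected CpG ratio was 0.814, with a range of 0.502 to 1.28, and in the 13 without it was 0.497, with a range of 0.151 to 1. The median over all windows of protein-coding genes was 0.567. The groups overlapped: Foxj3 had a ratio of 1 and Foxj2 one of 0.804 without any interval, and Foxb2 had one of 0.502 with 3 intervals. Foxk2 had the highest ratio, 1.28, with 59 CpG in its window and 1 interval of height 7, whereas Foxd3, of height 14, had 25 CpG and a ratio of 0.793. Among members with any window of ratio 0.6 or more, 15 of 20 had an interval, and among those with windows below it 2 of 8 did. Over all protein-coding genes these shares were 25.4% and 5.96%. In the CpG-rich windows an interval was assigned to 10 of 11 patterning members and 5 of 9 others.

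**Figure D5:**
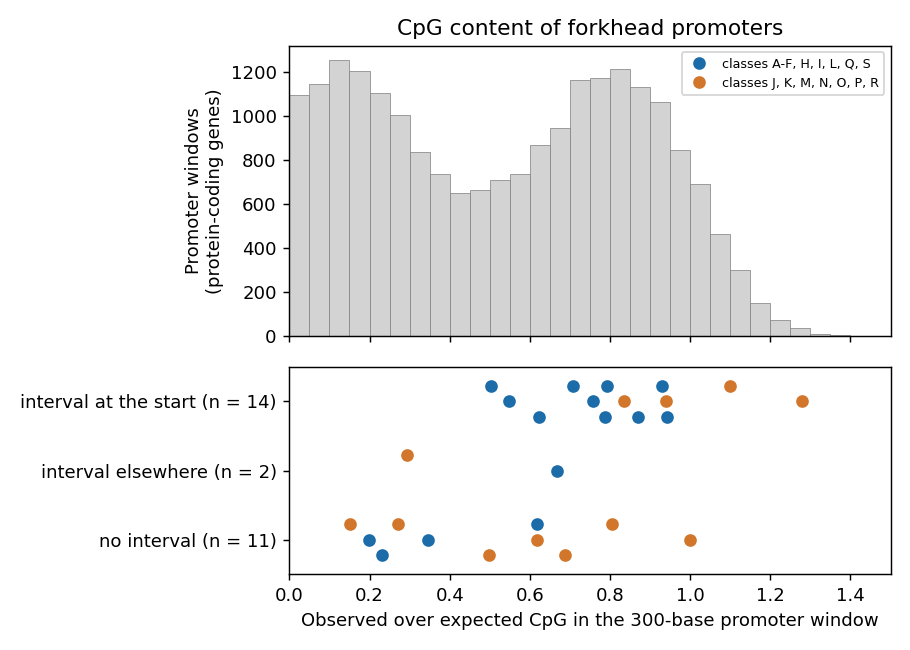
Observed over expected CpG ratio in the 300-base promoter window, for all windows of protein-coding genes (upper panel, number of windows) and for forkhead genes by Ring1b interval (lower panel, 1 point per gene). The 14 genes with an interval at the start lie between 0.502 and 1.28, and the 11 with no interval between 0.151 and 1.

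The forkhead core motif TGTTTAC, searched on both strands, was found in 1 of these 27 windows, that of Foxa1. It was found in 3.01% of the windows of protein-coding genes. A match is a description of the letters in the window only.

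Genes that act with the forkhead factors were also read. Of 66 genes in 7 lists of upstream regulators, partners and targets, 27 had an interval (40.9%, against 15.8% of all protein-coding genes), 20 of them within 2.5 kb of the start, with a median height of 5. The Hedgehog list, whose signal induces FoxF and FoxL1 genes, had 4 of 7, Ptch1 at 8, Smo at 6, and Gli1 and Ihh at 4. The FoxP partner list had 5 of 9, among them Runx1 at 12, the highest of all lists, and Ctbp2 at 7. The FoxK partner list had 3 of 6, with Bap1, a deubiquitinase of histone H2A, at 9. The multiciliation list around Foxj1 had 3 of 6, Ccno, Mcidas and Rfx3, each at 5, although no FoxJ gene had an interval. The list of AKT signalling and FoxO control had 7 of 19, with Irs2, an insulin receptor substrate, at 7. The Nodal and Smad list had 3 of 10, with Smad3 at 7, and the Foxm1 and cell cycle list had 2 of 9, Mybl2 at 5 and Birc5 at 4. Only Ptch1 and Runx1 of the 27 had an interval in run 1, against 378 of the 3461 protein-coding genes with an interval.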

How the data were processed

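Ring1b ChIP-seq was done on sorted EdU-positive incisor pulp cells. Per the submitters' processing notes, the authors used BWA and SICER with mm10; versions, roles and settings are not given in the sources used here. The deposited gene table holds, per the file headers, each gene's highest peak height (a signal value), the mean signal height in each run, and a count of intervals and merged regions per gene. The deposited interval file holds summit heights (a score) and interval bounds for each run and for merged regions. Both hold ChIP heights only, not reads, so precision from depth is unknown. The third file, which lists addresses of tracks, was left out.

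Everything else was computed with pandas 2.3.3, scipy 1.17.1 and numpy 2.4.6 under Python 3.11.15, and drawn with matplotlib 3.10.9. Deposited peak heights equalled the highest summit in all 3993 genes of the table, and deposited distances equalled summit minus start in all 5933 gene and interval pairs. Of the 3993 genes, 3461 matched the 21887 protein-coding genes of RefSeq GRCm38.p6 by gene ID, which form the background. "At the start" means an interval edge within 2.5 kb of the deposited start. Promoter sequences came from RefSeq and held 28 members. For genes with an interval, the window nearest the deposited start was used if within 500 bp, which left out Foxp1. For members without one, it was the first listed. Windows with an observed over expected CpG ratio of 0.6 or more were called CpG-rich.

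No test was run, because the labels give 1 ChIP sample. Members, classes and pathway lists were chosen with earlier results of these data known, so shares are descriptions. All members are named; those with coordinates are the 6 highest, those with 3 or more intervals and those called in both runs, plus Foxi3 and genes with a shared or internal start, chosen after their values were seen.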

Additional observations from a re-analysis of the deposited data

How the results depend on the processing

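Members with an interval were 25, and 21 to 23 with windows of 1 to 10 kb around the start, 22 at heights of 5 or more, 16 at 6 or more and 8 at 10 or more. The background fell too, to 7.9, 4.25 and 0.722% of protein-coding genes. Restricting the genes to those with a CpG-rich promoter gave 15 of 20 members (75%), against 25.4% of all such protein-coding genes. Restricting to genes shorter than 6 kb gave 16 of 22 (72.7%), against 9.46%. Both restrictions were chosen after seeing the data. With each run alone, members with an interval ranged from 2 in run 1 to 25 in run 2, and those with one at the start from 0 to 21. In the same way the patterning share ranged from 8.7 to 73.9% and that of the remaining classes from 0 to 40%, so every comparison of classes rests on run 2. Within 2.5 kb of the start the shares were 69.6 and 25%, and at heights of 6 or more 52.2 and 20%. Moving Foxh1 or Foxj1 between the groups left them at 70.8 to 77.3% and 38.1 to 42.1%. Median height was 5 to 6, median width 855 bp with run 2 intervals, and the CpG contrast kept its sign in CpG count, GC percent and a 250-base rule. No paired analysis was possible because each group has 1 labelled sample. Without read counts, the depth behind an absent interval is unknown.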
